A study of Homo sapiens with 12 samples.

Results

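The comparison set UCI-1014 against UCI-1001 in TOV-112D cells by RNA-seq and covers 4 of the 12 libraries of the series, chosen by their compound label, 2 for each compound. The 2 TOV-112D libraries treated with the solvent DMSO served as the shared control. TOV-112D is an ovarian adenocarcinoma cell line that carries p53 with the R175H substitution, and all 6 libraries were taken after 3 h of treatment. UCI-1001 is a small molecule that the study examined as a possible corrector of mutant p53, and UCI-1014 was tested as another member of its series. UCI-1001 was used at 10 µM per the study's methods, whereas no dose for the UCI-1014 libraries was found in the sources used here, so that compound and dose cannot be told apart in any result given here. The labels number the libraries of a group but do not say whether they were separate cultures, and p-values therefore measure the spread between these libraries, which may be technical. The other 6 libraries come from Saos-2 osteosarcoma cells (3 p53-null, 3 p53-WT) and were not used.

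Cells that meet damaged protein or electrophilic compounds switch on a few well-described programs. HSF1 is released from chaperones and turns on genes of the heat shock proteins through heat shock elements, NRF2 escapes KEAP1 and turns on glutathione, thioredoxin and heme genes through antioxidant response elements, and phosphorylation of the initiation factor eIF2 raises translation of ATF4, which turns on amino acid transport and synthesis genes. MAP kinases and NF-kB add immediate early genes such as FOS, EGR1 and NFKBIA, and p53 adds cell cycle and death genes such as CDKN1A and BBC3. HMOX1, GCLC, DNAJB1, SESN2 and MAFF each stand for 1 or more of these programs and were the marker genes given for this comparison.

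Counts are given per library as CPM, that is counts scaled by the library size times edgeR's TMM factor. Deposited counts summed to 17762027 to 20717898 per TOV-112D library, so that 3 counts came to between 0.149 and 0.179 CPM. The libraries of a pair lay close together, with a median SD over genes of 0.051 on the log2 scale for DMSO, 0.059 for UCI-1001 and 0.066 for UCI-1014. Of 6 epithelial carcinoma markers, only EPCAM and CDH1 had enough counts to be tested, at no more than 3.09 CPM in any library, while KRT18 had no counts in any library. Of the osteoblast markers, COL1A1 lay between 47.7 and 53.04 CPM, and the leukocyte marker CD3E had no counts in any library. None of the 8 tested members of these 3 marker lists differed between the compounds.

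In the fit of the 6 libraries, 4406 of 14177 tested genes (31.1%) differed between UCI-1014 and UCI-1001 at an adjusted p-value under 0.05 (edgeR quasi-likelihood test), the call used throughout. Of these, 2430 were higher with UCI-1014 (17.1% of the tested genes) and 1976 were lower (13.9%). These shares are the background for the members called in each list below. The size of the differences was uneven: 261 genes (1.84%) were past 2-fold, 218 of them higher with UCI-1014 (1.54%) and 43 lower (0.303%), and the median called difference was 0.31 on the log2 scale. UCI-1014 took more RNA into a few induced genes, HSPA1A alone holding 2.37% and 2.24% of its counts, and the split into higher and lower calls moved with the scaling: 55.2% of the calls were higher with UCI-1014 with TMM factors, 38.3% with upper-quartile scaling and 25.5% with library size alone, which set the median of all genes at -0.13 on the log2 scale against -0.01. Small differences are therefore given below with the scaling that turns the direction of a list. Genes called higher had a median transcript length of 2891 bases, genes called lower 2192 and genes not called 2243, and the part of length in the calls was not tested.

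Against DMSO, UCI-1001 changed 2232 of the tested genes (15.7%, of which 9.39% higher and 6.36% lower) and UCI-1014 changed 6677 (47.1%, of which 23.7% higher and 23.4% lower). These contrasts share the DMSO libraries, and each shares a compound's libraries with the direct comparison, so that the counts that follow only sort the called genes and are not tests. Among the 4406 genes called between the compounds, 1417 had been moved by both compounds to the same side of DMSO with UCI-1014 farther out, 984 of them upwards and 433 downwards. Over the class, risen and fallen genes together, the median signed log2 difference from DMSO was 0.27 for UCI-1001 against 0.63 for UCI-1014. The class was defined by UCI-1014 lying farther out, so that the order of these medians follows from the sorting. UCI-1014 alone differed from DMSO for 2617 genes, 1268 higher and 1349 lower than with UCI-1001. UCI-1001 lay farther out than UCI-1014 for 3 genes, UCI-1001 alone differed from DMSO for 56 genes, the compounds lay on opposite sides of DMSO for 4 genes, and neither passed the test against DMSO for 309 genes. These sorting counts depended on single libraries: without DMSO replicate 1, the class with UCI-1014 farther out held 701 genes, UCI-1001 alone 18 and neither 496, and without UCI-1014 replicate 1 UCI-1014 alone held 1661. Of the 218 genes past 2-fold and higher with UCI-1014, 121 belonged to the class moved farther by UCI-1014 and 77 to UCI-1014 alone; 198 of the 218 are protein coding, and 89 had less than 1 CPM in DMSO.

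All 5 marker genes rose with UCI-1001 and rose further with UCI-1014. HMOX1 (ENSG00000100292, chr22:35380361-35394214, plus strand, GRCh38 with GENCODE release 44), the inducible heme oxygenase, stood at 34.2 and 34.4 CPM with DMSO, 295 and 351 CPM with UCI-1001 and 1229 and 1192 CPM with UCI-1014. MAFF (ENSG00000185022, chr22:38200767-38216507, plus strand), a small MAF partner of NRF2 and BACH1, stood at 5.41 and 4.55 CPM with DMSO, 28.9 and 35.8 CPM with UCI-1001 and 137 and 137 CPM with UCI-1014. SESN2 (ENSG00000130766, chr1:28259518-28282491, plus strand), which restrains mTORC1 and is induced by ATF4, NRF2 and p53, stood at 16.6 and 13.2 CPM with DMSO, 53.4 and 67.2 CPM with UCI-1001 and 313 and 280.1 CPM with UCI-1014. In each of the 3 genes the groups kept the order DMSO, UCI-1001, UCI-1014 with no overlap, and the step between the compounds was 3.75-fold, 4.23-fold and 4.91-fold (log2 differences 1.91 ± 0.06, 2.08 ± 0.08 and 2.30 ± 0.09 SE, n = 2 per group, adjusted p = 4.6e-11, 1.6e-10 and 1.6e-10). Over all 14177 tested genes, the libraries of the compounds did not overlap for 9033. DNAJB1 (ENSG00000132002, chr19:14514769-14560391, minus strand), the J-domain cochaperone of HSP70, stood at 115 and 122 CPM with DMSO, 1471 and 1854 CPM with UCI-1001 and 5467 and 4678 CPM with UCI-1014, a log2 difference of 1.61 ± 0.08 (SE, n = 2 per group, adjusted p = 4.9e-09). GCLC (ENSG00000001084, chr6:53497341-53616970, minus strand), the catalytic subunit of glutathione synthesis, had the smallest steps, at 50.6 and 47.6 CPM with DMSO, 60.3 and 66.4 CPM with UCI-1001 and 114 and 120.0 CPM with UCI-1014. Its log2 difference between the compounds was 0.89 ± 0.06 (SE, adjusted p = 4.3e-08), larger than the 0.37 by which UCI-1001 stood above DMSO.

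**Figure D1:**
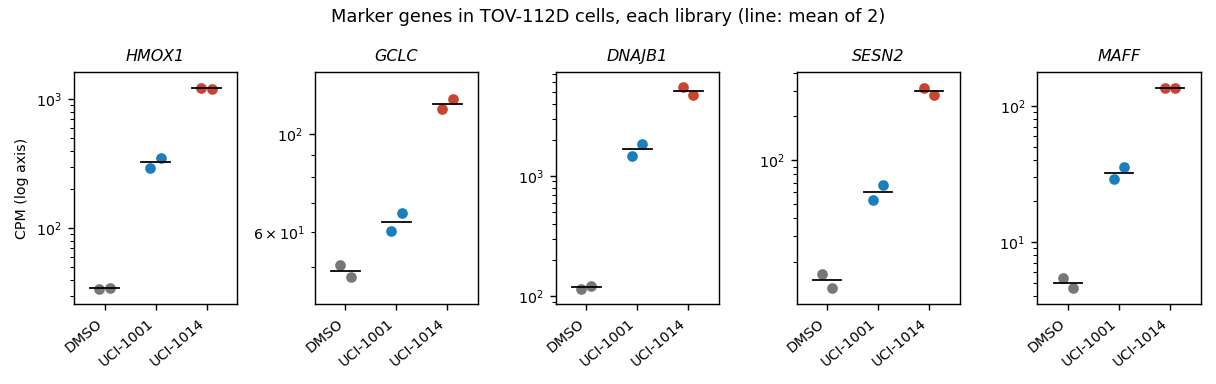
CPM (log axis) of the 5 marker genes in each of the 6 TOV-112D libraries, with points for libraries, a line for the mean of each pair and one panel per gene. In every panel the 2 DMSO libraries are lowest and the 2 UCI-1014 libraries highest, with no overlap between the groups. Between the compounds, libraries did not overlap for 9033 of the 14177 tested genes.

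Most genes of the HSP70 and HSP110 family rose with UCI-1001, 10 of 11 being called above DMSO, and most were higher again with UCI-1014. Of the 11 tested genes of the HSP70 and HSP110 family, 9 were higher with UCI-1014 and none was lower, with a median log2 difference of 0.78 against -0.01 over all tested genes, on top of a median of 2.07 by which UCI-1001 had already stood above DMSO. HSPA1A, the main stress-inducible HSP70, stood at 227 and 207 CPM with DMSO, 6441 and 7151 CPM with UCI-1001 and 25117 and 23715 CPM with UCI-1014, a 3.59-fold step between the compounds (log2 1.85 ± 0.05 SE, adjusted p = 1.7e-11). HSPA1B, whose coding sequence is nearly the same so that reads can be split between the pair, differed by a like amount (log2 1.74 ± 0.07, adjusted p = 1.9e-10). HSPH1, the HSP110 that exchanges nucleotide on HSP70, stood at 183 and 177 CPM with DMSO, 908 and 1016 CPM with UCI-1001 and 3429.7 and 3097 CPM with UCI-1014. HSPA4L, another member of the HSP110 branch, differed by 1.49 ± 0.07 on the log2 scale. In all 4 genes the lowest UCI-1014 library lay above the highest UCI-1001 library. Libraries of the compounds did not overlap, in either direction, for 9033 of the 14177 tested genes. Per length, HSPH1 reached 1592 and 1416 TPM with UCI-1014 against 434 and 479 TPM with UCI-1001, and HSP90AA1 5668 and 5306 TPM against 2498 and 2682 TPM. For HSPA1A and HSPA1B most counts stood under identifiers that the annotation used here does not place, so that neither position nor TPM is given for them.

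The J-domain cochaperones, which hand clients to HSP70, had 11 of 15 tested members higher with UCI-1014 and none lower (median 0.34), and UCI-1001 had raised 7 of the 15 over DMSO. DNAJA1 rose to 1417 and 1324 CPM from 570.3 and 622 CPM with UCI-1001, and DNAJB4 to 130.0 and 103 from 47.6 and 62.4 CPM (log2 1.20 ± 0.05 and 1.08 ± 0.11, adjusted p at most 4.5e-06). For HSP90 and its cochaperones, 9 of 13 members were higher and 1 was lower (median 0.64), and 9 had been called above DMSO with UCI-1001. CHORDC1, an HSP90 cochaperone, stood at 57.0 and 51.0 CPM with DMSO, 145 and 154 CPM with UCI-1001 and 412 and 375 CPM with UCI-1014, and HSP90AA1, the inducible HSP90, at 2442 and 2472 CPM with DMSO, 5035 and 5466 CPM with UCI-1001 and 11729 and 11151 CPM with UCI-1014, log2 differences of 1.40 ± 0.05 and 1.12 ± 0.04 between the compounds (adjusted p at most 1.9e-10). BAG3, which couples HSP70 to autophagy, stood at 46.7 and 48.3 CPM with DMSO, 339 and 412 CPM with UCI-1001 and 1427 and 1226 CPM with UCI-1014 (log2 1.82 ± 0.08, adjusted p = 6.3e-10). HSPB1, the small heat shock protein HSP27, differed by 0.69 ± 0.04 on the log2 scale, and CRYAB, a small heat shock protein of muscle and lens, rose from low counts, 0.842 and 0.352 CPM with UCI-1001 and 3.05 and 1.74 CPM with UCI-1014 (adjusted p = 0.0039, but 0.071 without UCI-1014 replicate 1). In this group of BAG and small heat shock proteins, 4 of 10 tested members were higher and 2 lower, and against DMSO UCI-1001 had 3 higher and 1 lower.

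The lists of CCT subunits and of mitochondrial chaperones and proteases had smaller medians, 0.23 and 0.18, than the chaperone lists above. Single members did not all move less: HSPD1 differed more than HSP90AA1. All but 1 of the 8 subunits of the cytosolic chaperonin CCT were higher with UCI-1014 (median 0.23), the largest being TCP1 at 0.73 ± 0.05. With library size alone as scaling, the list had 4 higher and 0 lower. In mitochondria, HSPD1 and HSPE1, the HSP60 and HSP10 pair, were higher by 1.24 ± 0.04 and 0.80 ± 0.04, and 7 of the 12 mitochondrial chaperones and proteases were higher in all, against 4 higher and 3 lower with library size alone, while UCI-1001 against DMSO had 4 higher and 1 lower. Proteasome subunits showed no such step, with a median difference of 0.03. Although 12 of 31 were called higher and 1 lower, library size scaling turned this to 4 higher and 12 lower, and the largest difference, in the lid subunit PSMD12, was 0.42 ± 0.04 (adjusted p = 6.5e-06). The ubiquitin and autophagy receptor genes had 10 of 13 members higher and 1 lower (median 0.39). SQSTM1, the autophagy receptor p62, stood at 173 and 169 CPM with DMSO, 260.0 and 271 CPM with UCI-1001 and 514 and 578 CPM with UCI-1014, and MAP1LC3B, an LC3 of the autophagosome membrane, at 74.0 and 72.2 CPM with DMSO, 99.4 and 103 CPM with UCI-1001 and 212 and 201 CPM with UCI-1014. The log2 differences were 1.04 ± 0.05 and 1.03 ± 0.04 (adjusted p at most 1.9e-09).

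The promoter windows below show where the core of the heat shock element, the HSF1 binding site, lies in chaperone genes that UCI-1014 raised past UCI-1001. The search covered 250 bases before to 50 bases after each RefSeq gene start (GRCh38.p14), on both strands, for GAANNTTC or TTCNNGAA, and positions are counted from the start with -1 as the base before it. Capitals mark the match.
HSPA1A (chr6:31815427-31815454, plus strand, first capital at -106): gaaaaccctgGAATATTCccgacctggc
DNAJB1 (chr19:14518427-14518454, minus strand, first capital at -47): gcgggctctgGAAGCTTCcgccggacgg
CHORDC1 (chr11:90223087-90223114, minus strand, first capital at -55): gaccggaaaaTTCGCGAAggttcctgaa
HSP90AA1 (chr14:102087115-102087142, minus strand, first capital at -88): gggagggttcTTCCGGAAggttcgggag
A match of these letters occurred in 50% of the promoters of the HSP70 and HSP110 list, 6 of 12, in 20.3% of the promoters of genes past 2-fold that UCI-1014 raised farther than UCI-1001 (28 of 138) and in 7.35% of those past 2-fold with UCI-1014 alone (5 of 68). Over all genes past 2-fold, it was 15.2% for those higher with UCI-1014 (33 of 217) and 17.2% for those lower (5 of 29). The match was thus not less frequent among the few genes lowered past 2-fold. The share was 10.5% over the promoters of tested genes (1664 of 15865) and 13.5% over all 35116 promoters. The shares are descriptions, and genes with several starts count once per start.

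Genes that make glutathione were higher with UCI-1014. Of the 13 tested glutathione and cystine genes, 7 were higher with UCI-1014 and 2 were lower (median 0.38). GCLM, the regulatory partner of GCLC, stood at 39.1 and 36.6 CPM with DMSO, 62.3 and 68.8 CPM with UCI-1001 and 162 and 152 CPM with UCI-1014, a log2 difference of 1.26 ± 0.06 (adjusted p = 1.1e-09). CHAC1, which degrades glutathione and is a target of ATF4, stood at 2.11 and 2.22 CPM with DMSO, 24.5 and 33.6 CPM with UCI-1001 and 93.6 and 72.4 CPM with UCI-1014 (log2 1.51 ± 0.13, adjusted p = 6.1e-07). CTH, the last enzyme of cysteine synthesis from methionine, differed by 0.76 ± 0.21 (adjusted p = 0.013). The call of CTH was lost without UCI-1014 replicate 1 (0.72) and with the Wald test of DESeq2 (adjusted p = 0.056). The selenium-containing glutathione peroxidases GPX1 and GPX4 were lower with UCI-1014, by log2 differences of -0.22 and -0.15, the call of GPX4 being lost without UCI-1001 replicate 1 (adjusted p = 0.15) or UCI-1014 replicate 1 (0.074).

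Within the NRF2 axis and thioredoxin system, 6 of 20 members were higher and 4 were lower, and this balance turned to 5 higher and 8 lower with library size scaling, while the median difference was 0.06. SRXN1, the sulfiredoxin that repairs peroxiredoxins, stood at 80.1 and 78.1 CPM with DMSO, 100.4 and 109 CPM with UCI-1001 and 288 and 279 CPM with UCI-1014. UCI-1014 lay 2.71-fold above UCI-1001 (log2 1.44 ± 0.05, adjusted p = 5.2e-11), a step larger than that of UCI-1001 from DMSO (0.40). TXNRD1, the cytosolic thioredoxin reductase, stood at 273 and 269 CPM with DMSO, 368 and 404 CPM with UCI-1001 and 771 and 764 CPM with UCI-1014. BACH1, the repressor that competes with NRF2 for its sites, stood at 57.2 and 55.6 CPM with DMSO, 71.2 and 78.9 CPM with UCI-1001 and 161 and 135 CPM with UCI-1014. OSGIN1, an NRF2-induced growth inhibitor, rose to 4.18 and 4.86 CPM from 2.58 and 1.36 CPM. The log2 differences of the last 3 were 0.99 ± 0.04, 0.98 ± 0.07 and 1.20 ± 0.32 (adjusted p at most 0.011), with OSGIN1 at 0.075 without UCI-1001 replicate 2 and 0.074 without UCI-1014 replicate 2. NQO1, the quinone reductase often used as an NRF2 readout, was chosen for mention after its values were seen and stood at 28.6 and 29.9 CPM with DMSO, 33.2 and 33.0 CPM with UCI-1001 and 38.0 and 35.8 CPM with UCI-1014, with an interval of 0.01 to 0.30 for the log2 difference between the compounds (adjusted p = 0.1).

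Among 13 heme and iron genes, HMOX1 stood apart, followed by FTL, the ferritin light chain, at 409 and 404 CPM with DMSO, 474 and 470.4 CPM with UCI-1001 and 669 and 695 CPM with UCI-1014 (log2 0.53 ± 0.03, adjusted p = 4.9e-08), and ALAS1, the first enzyme of heme synthesis (0.40 ± 0.05). FTH1, the ferritin heavy chain, stood at 481 and 468 CPM with UCI-1001 and 439 and 472 CPM with UCI-1014, log2 -0.06 ± 0.04 (adjusted p = 0.31, with the sign turned to a value near 0 without UCI-1014 replicate 1). It was called lower with library size scaling (-0.17, adjusted p = 0.003) and with upper-quartile scaling (-0.11, adjusted p = 0.045). The list had 4 members higher and 2 lower, or 4 higher and 8 lower with library size scaling. Of the 4 tested metallothionein and zinc export genes, MT1X and MT2A were lower and none was higher. Metallothioneins bind zinc and are induced by metals. MT1X stood at 7.78 and 7.96 CPM with DMSO, 6.24 and 5.28 CPM with UCI-1001 and 2.69 and 2.66 CPM with UCI-1014 and MT2A at 9.84 and 9.26 CPM with DMSO, 11.1 and 7.65 CPM with UCI-1001 and 5.61 and 4.76 CPM with UCI-1014, log2 differences of -1.11 ± 0.18 and -0.86 ± 0.18 between the compounds (adjusted p = 3.1e-04 and 0.002). UCI-1001 did not separate from DMSO in MT2A (adjusted p = 0.94), while both UCI-1014 libraries lay below all 4 others in either gene. The core of the antioxidant response element, searched in the same windows as TGACNNNGC, is shown in capitals for genes that rose with both compounds and further with UCI-1014.
MAFF (chr22:38201862-38201890, plus strand, first capital at -122): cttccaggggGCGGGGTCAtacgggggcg
GCLM (chr1:93909446-93909474, minus strand, first capital at -34): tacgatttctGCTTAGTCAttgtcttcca
TXNRD1 (chr12:104215670-104215698, plus strand, first capital at -99): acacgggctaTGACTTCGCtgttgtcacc
It occurred in 23.9% of the promoters of genes past 2-fold that UCI-1014 raised farther than UCI-1001 (33 of 138), in 8.82% of those with UCI-1014 alone (6 of 68) and in 25% of those of the glutathione list. Over all genes past 2-fold, it was 18.4% for those higher with UCI-1014 (40 of 217) and 10.3% for those lower (3 of 29). The share was 14.2% over the promoters of tested genes and 13.3% over all promoters.

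Targets of ATF4 were higher with UCI-1014. Of 28 tested members of the integrated stress response, 22 were higher with UCI-1014 and none was lower, with a median of 0.76 between the compounds and of 0.57 between UCI-1001 and DMSO. ATF3, a repressor induced by ATF4, stood at 1.75 and 1.41 CPM with DMSO, 21.7 and 31.0 CPM with UCI-1001 and 93.2 and 75.3 CPM with UCI-1014. TRIB3, a pseudokinase that restrains ATF4 output, stood at 44.1 and 44.4 CPM with DMSO, 113 and 130.3 CPM with UCI-1001 and 355 and 344 CPM with UCI-1014, and the groups did not overlap in either gene (log2 1.67 ± 0.13 and 1.52 ± 0.05, adjusted p = 2.3e-07 and 1.3e-10). A lack of overlap between the compounds held for 9033 of the 14177 tested genes. VLDLR, a lipoprotein receptor, was at 1.24 and 1.46 CPM with DMSO, 1.78 and 1.61 CPM with UCI-1001 and 5.55 and 4.81 CPM with UCI-1014, and UCI-1001 did not separate it from DMSO (adjusted p = 0.49). GDF15, a secreted stress hormone, rose from 0.594 and 0.503 CPM to 1.91 and 1.38 CPM (adjusted p = 0.0091). The call of GDF15 was lost without UCI-1014 replicate 1 (log2 1.33), UCI-1001 replicate 1 (1.70) or UCI-1001 replicate 2 (1.47). ATF4 mRNA itself, DDIT3 (CHOP, the factor tied to death under stress) and ASNS (asparagine synthetase) were higher by 0.72, 1.36 and 1.38 on the log2 scale (adjusted p = 2.9e-09, 2.0e-07 and 1.2e-10).

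Amino acid charging genes followed with smaller steps. Of 20 cytosolic aminoacyl-tRNA synthetase genes, 11 were higher and 1 lower (median 0.17, 8 higher and 5 lower with library size scaling). The 4 largest were GARS (0.85), AARS (0.72), CARS (0.70) and TARS (0.70), the enzymes for glycine, alanine, cysteine and threonine, with adjusted p at most 2.2e-07. The endoplasmic reticulum unfolded protein response moved little in its median (0.06), with 6 of 19 higher and 3 lower. Over all tested genes the shares were 17.1% and 13.9%. The split of the list turned to 5 higher and 8 lower with library size scaling. HERPUD1, an ERAD scaffold that ATF4 also induces, stood at 21.7 and 22.2 CPM with DMSO, 46.9 and 60.3 CPM with UCI-1001 and 104 and 91.1 CPM with UCI-1014, and XBP1 at 33.3 and 34.1 CPM with DMSO, 51.9 and 61.1 CPM with UCI-1001 and 96.4 and 91.3 CPM with UCI-1014 (log2 0.86 ± 0.09 and 0.73 ± 0.07). HSPA5, the ER chaperone BiP and a classical target of this response, differed by 0.23 ± 0.03 (adjusted p = 1.1e-04), and UCI-1001 did not separate it from DMSO (log2 0.03, adjusted p = 0.58). Among 9 sestrins and brakes of mTORC1, SESN2 and DDIT4 were higher and no member was lower. DDIT4, or REDD1, stood at 5.46 and 3.57 CPM with DMSO, 9.46 and 12.5 CPM with UCI-1001 and 25.6 and 19.7 CPM with UCI-1014 (log2 1.04 ± 0.16, adjusted p = 1.8e-04).

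The composite element that ATF4 binds with C/EBP partners was searched as TGATGNAA on both strands in the same windows, and 3 matches in genes named above are shown with the match in capitals.
CHAC1 (chr15:40953252-40953279, plus strand, first capital at -209): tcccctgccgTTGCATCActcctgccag
ATF3 (chr1:212565206-212565233, plus strand, first capital at -191): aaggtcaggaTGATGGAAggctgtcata
HERPUD1 (chr16:56931956-56931983, plus strand, first capital at -176): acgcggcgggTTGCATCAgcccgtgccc
It occurred in 18.9% of the promoters of the integrated stress response list (7 of 37), in 2% of the promoters of tested genes and in 3.62% of all promoters. The match in CHAC1 and HERPUD1 reads TTGCATCA on the gene's strand, the reverse complement of the searched letters.

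**Figure D2:**
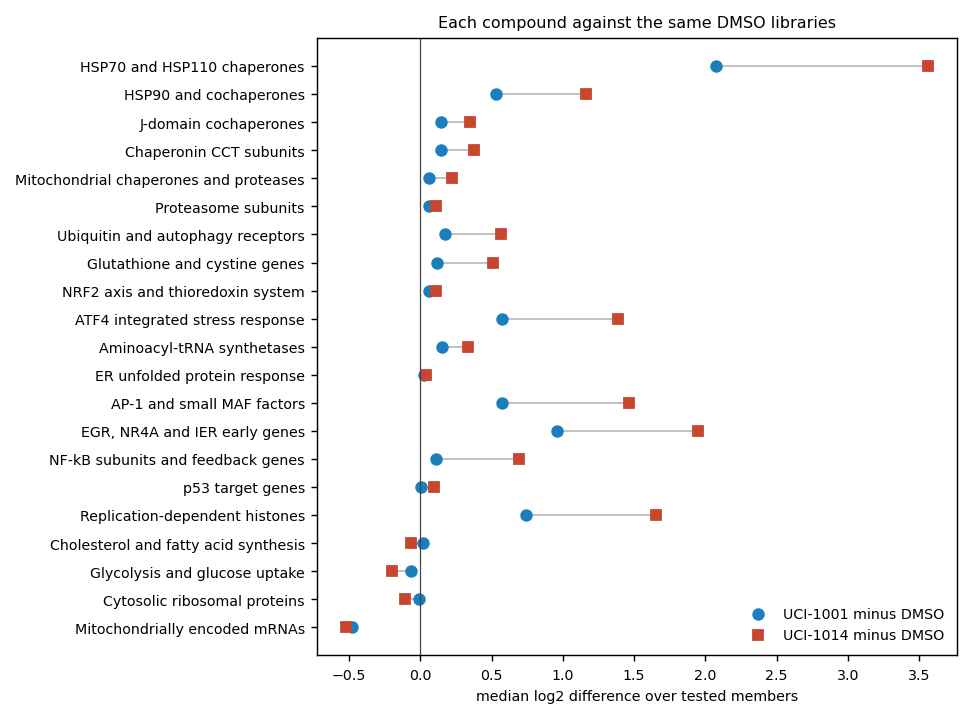
Median log2 difference from DMSO of each gene list with UCI-1001 and with UCI-1014, gene lists in rows, circles for UCI-1001 and squares for UCI-1014, both taken against the same DMSO libraries. The HSP70 list lies farthest out with both compounds, the chaperone, ATF4, early gene and histone lists lie farther right with UCI-1014, the proteasome and unfolded protein response lists lie near 0 with both, and the mitochondrially encoded mRNAs lie near -0.5 with both.

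Most immediate early transcription factors were higher with UCI-1014. Of the 12 tested AP-1 and small MAF genes, 9 were higher with UCI-1014 and none was lower (median 0.69). FOSL1, or FRA1, stood at 10.3 and 8.39 CPM with DMSO, 14.7 and 18.8 CPM with UCI-1001 and 48.0 and 44.8 CPM with UCI-1014, and FOSB at 4.12 and 4.71 CPM with DMSO, 23.3 and 31.3 CPM with UCI-1001 and 91.0 and 66.9 CPM with UCI-1014 (log2 1.47 ± 0.10 and 1.53 ± 0.13, adjusted p = 1.2e-07 and 9.9e-07). FOSL2 differed by 1.03 ± 0.06. The founding members were less separated: JUN stood at 18.2 and 16.3 CPM with DMSO, 177 and 254 CPM with UCI-1001 and 353 and 250.0 CPM with UCI-1014 (log2 0.48 ± 0.14, adjusted p = 0.018, but 0.16 without UCI-1001 replicate 1 and 0.25 without UCI-1014 replicate 1), and FOS at 7.37 and 8.39 CPM with DMSO, 57.0 and 92.9 CPM with UCI-1001 and 99.5 and 66.3 CPM with UCI-1014, where the libraries of the 2 compounds overlapped (interval -0.25 to 0.53, adjusted p = 0.61). FOS lay above DMSO by 3.25 on the log2 scale under UCI-1001 and by 3.39 under UCI-1014, and the sign of its difference between the compounds turned without UCI-1001 replicate 1 or UCI-1014 replicate 1, both to -0.16, while without UCI-1001 replicate 2 it was called at 0.55.

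Of 14 early genes of the EGR, NR4A and IER families, 12 were higher with UCI-1014 and none was lower (median 0.56). NR4A3, an orphan nuclear receptor, stood at 2.01 and 2.22 CPM with DMSO, 9.36 and 12.02 CPM with UCI-1001 and 44.9 and 34.1 CPM with UCI-1014 (log2 1.88 ± 0.13, adjusted p = 1.2e-07). EGR4 stood at 1.80 and 2.76 CPM with DMSO, 19.2 and 24.9 CPM with UCI-1001 and 72.8 and 55.5 CPM with UCI-1014 and EGR3 at 10.4 and 10.9 CPM with DMSO, 30.4 and 45.3 CPM with UCI-1001 and 117 and 98.3 CPM with UCI-1014, while EGR1 differed by 0.41 ± 0.11 (adjusted p = 0.01, but 0.11 without UCI-1014 replicate 1 and 0.071 without UCI-1001 replicate 1). ARC, an early gene best known from neurons, stood at 16.8 and 19.5 CPM with DMSO, 33.3 and 37.2 CPM with UCI-1001 and 104 and 78.2 CPM with UCI-1014. CYR61, a matricellular early gene and YAP target, did not separate the compounds, at 39.2 and 34.0 CPM with DMSO, 109 and 133 CPM with UCI-1001 and 145 and 125 CPM with UCI-1014 (interval -0.02 to 0.34, adjusted p = 0.18), although it was called at 0.32 without UCI-1001 replicate 2, at 0.28 without UCI-1014 replicate 2 and at 0.15 with no filter on low counts. Of 9 phosphatases that switch MAP kinases off, 3 were higher and 1 was lower: DUSP8 and DUSP5 were higher with UCI-1014 (1.46 ± 0.08 and 1.27 ± 0.15), as was DUSP16 (0.84 ± 0.05), DUSP6 was lower (-0.43 ± 0.05, adjusted p = 1.2e-05), and DUSP1 stood at 29.3 and 39.6 CPM with UCI-1001 and 52.3 and 33.9 CPM with UCI-1014 against 10.8 and 10.3 CPM with DMSO, with an interval of -0.03 to 0.65 between the compounds (adjusted p = 0.15). DUSP1 moved with the library left out, from -0.01 without UCI-1014 replicate 1 to 0.61 without UCI-1014 replicate 2, where it was called (adjusted p = 0.0028). It was also called without UCI-1001 replicate 2 (0.56, adjusted p = 0.02), with no filter on low counts (adjusted p = 0.0012) and with a block that crossed the replicate numbers of the compounds (adjusted p = 0.011). Of 14 KLF factors, 6 were higher and 1 was lower, the largest being KLF5 (1.23 ± 0.26) and KLF4 (1.13 ± 0.29), both from under 1 CPM in DMSO. The call of KLF4 was lost without UCI-1014 replicate 1 (0.80) or UCI-1001 replicate 1 (1.03).

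Genes of the NF-kB pathway were higher with UCI-1014, and several did not separate UCI-1001 from DMSO. Of 10 tested subunits and feedback genes, 9 were higher with UCI-1014 and none was lower (median 0.55), whereas the median between UCI-1001 and DMSO was 0.11. NFKBIA, the inhibitor IkBα, stood at 17.7 and 19.3 CPM with DMSO, 16.7 and 15.9 CPM with UCI-1001 and 29.4 and 30.3 CPM with UCI-1014. UCI-1014 was above UCI-1001 by 0.87 ± 0.08 (adjusted p = 1.9e-06) and UCI-1001 did not separate from DMSO (log2 -0.18, adjusted p = 0.19). REL stood at 31.5 and 30.3 CPM with DMSO, 31.5 and 33.0 CPM with UCI-1001 and 51.7 and 49.0 CPM with UCI-1014. It differed by 0.64 ± 0.07 between the compounds (adjusted p = 5.1e-06) and by 0.06 between UCI-1001 and DMSO (adjusted p = 0.64). TNFAIP3, the deubiquitinase A20, rose with both, at 2.47 and 2.38 CPM with DMSO, 6.44 and 6.39 CPM with UCI-1001 and 18.7 and 14.99 CPM with UCI-1014, and BIRC3, or cIAP2, stood at 2.47 and 2.71 CPM with DMSO, 3.17 and 4.23 CPM with UCI-1001 and 11.2 and 13.6 CPM with UCI-1014 (log2 1.39 ± 0.13 and 1.75 ± 0.17, adjusted p = 2.7e-06 and 2.9e-06). The kB site, searched on both strands as GGGA, any 2 bases and TTCC, is shown in capitals.
NFKBIA (chr14:35404811-35404840, minus strand, first capital at -81): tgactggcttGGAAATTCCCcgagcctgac
TNFAIP3 (chr6:137867182-137867211, plus strand, first capital at -67): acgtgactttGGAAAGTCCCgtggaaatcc
REL (chr2:60881517-60881546, plus strand, first capital at -47): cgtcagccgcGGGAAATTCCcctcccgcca
It occurred in 10 of 20 promoters of the list's genes, tested or not, in 1.57% of the promoters of tested genes and in 1.61% of all promoters. Among promoters of genes past 2-fold and higher with UCI-1014, 1 of 217 held it (0.461%).

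Of 8 tested secreted growth and stress factors, 5 were higher and none was lower (median 1.14). LIF, a cytokine of the IL-6 family, stood at 0.979 and 0.704 CPM with DMSO, 0.892 and 1.06 CPM with UCI-1001 and 2.81 and 2.76 CPM with UCI-1014 (log2 1.51 ± 0.31, adjusted p = 0.002), and HBEGF, a ligand of the EGF receptor, at 1.60 and 2.38 CPM with DMSO, 3.91 and 4.98 CPM with UCI-1001 and 12.7 and 11.2 CPM with UCI-1014 (1.42 ± 0.17, adjusted p = 2.1e-05). VEGFA, the main angiogenic factor, stood at 47.7 and 44.6 CPM with DMSO, 54.0 and 62.6 CPM with UCI-1001 and 116 and 102 CPM with UCI-1014 (0.90 ± 0.07, adjusted p = 5.2e-07). In LIF, UCI-1001 did not separate from DMSO (adjusted p = 0.77).

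The study was concerned with mutant p53, and the p53 target list was mixed. Of 33 tested targets, 12 were higher with UCI-1014, 3 were lower and 18 did not pass the test. Over all tested genes, 17.1% were higher and 13.9% lower. The median of the list was 0.08 between the compounds and 0.01 between UCI-1001 and DMSO. Against DMSO, UCI-1001 had 8 of the 33 targets higher and 1 lower, beside 9.39% and 6.36% over all tested genes. UCI-1014 had 15 higher and 4 lower against DMSO, beside 23.7% and 23.4%. With library size scaling the list had 11 higher and 9 lower. CDKN1A, the cell cycle inhibitor p21, stood at 7.78 and 9.20 CPM with DMSO, 25.3 and 27.9 CPM with UCI-1001 and 97.7 and 99.6 CPM with UCI-1014 (log2 1.89 ± 0.07, adjusted p = 1.6e-10). BBC3, the BH3-only protein PUMA, stood at 2.94 and 3.30 CPM with DMSO, 3.22 and 2.26 CPM with UCI-1001 and 7.17 and 6.75 CPM with UCI-1014. It separated the compounds by 1.34 ± 0.20 (adjusted p = 1.6e-04), while UCI-1001 did not separate from DMSO (log2 -0.18, adjusted p = 0.65). GADD45A stood at 3.81 and 3.68 CPM with DMSO, 6.59 and 6.24 CPM with UCI-1001 and 14.3 and 14.2 CPM with UCI-1014 (log2 1.15 ± 0.12, adjusted p = 5.7e-06). MDM2, the ubiquitin ligase of p53 and a classical target, did not pass the test and stood at 129.7 and 129.8 CPM with DMSO, 127.7 and 133 CPM with UCI-1001 and 138 and 131 CPM with UCI-1014, with an interval of -0.04 to 0.14 between the compounds (adjusted p = 0.44), and its sign turned with library size or upper-quartile scaling. CDKN1A, GADD45A and SESN2 are also induced without p53, and SESN2 is also in the list of sestrins.

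In the BCL2 and IAP families, 6 of 17 members were higher and 2 lower. MCL1, a short-lived survival factor, stood at 311 and 315 CPM with DMSO, 397 and 440.3 CPM with UCI-1001 and 862 and 826 CPM with UCI-1014 (log2 1.01 ± 0.04, adjusted p = 1.0e-09), and the BH3-only gene HRK rose to 4.60 and 3.68 CPM from 1.63 and 2.06 CPM (adjusted p = 0.0043, 0.051 without UCI-1014 replicate 1). In the MYC network, MXD1, an antagonist that competes with MYC for MAX, stood at 4.95 and 4.28 CPM with DMSO, 23.8 and 32.7 CPM with UCI-1001 and 98.6 and 85.1 CPM with UCI-1014 (log2 1.70 ± 0.11, adjusted p = 4.4e-08), and MYC differed by -0.23 ± 0.04 (adjusted p = 0.0013). The whole list, 4 of 10 higher and 1 lower, turned to 2 higher and 4 lower with library size scaling.

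Feedback genes of Wnt, BMP and Notch signalling went in both directions, 3 of 19 higher and 6 lower with UCI-1014. Of all tested genes, 17.1% were higher and 13.9% lower. NRARP, a feedback inhibitor of Notch, stood at 24.9 and 23.4 CPM with DMSO, 21.7 and 19.0 CPM with UCI-1001 and 39.1 and 34.6 CPM with UCI-1014. UCI-1014 lay above UCI-1001 by 0.85 ± 0.09 (adjusted p = 5.3e-06), while UCI-1001 stood at -0.24 against DMSO (adjusted p = 0.091). ID4, a BMP target, was higher (0.59 ± 0.13), whereas SMAD6, an inhibitor of BMP signalling, and HEY2, a Notch target, were lower (-0.50 ± 0.08 and -0.55 ± 0.11, adjusted p = 3.2e-04 and 0.0017). AXIN2, the standard Wnt feedback gene and abundant here, stood at 518 and 531 CPM with DMSO, 425 and 393 CPM with UCI-1001 and 291 and 318 CPM with UCI-1014 (log2 -0.43 ± 0.05, adjusted p = 1.1e-05). Among P-TEFb and its partners, the elongation machinery of RNA polymerase II, all 12 members were called, 8 higher and 4 lower. ELL2 and AFF4, subunits of the super elongation complex, were higher (1.07 ± 0.13 and 0.87 ± 0.04), as was the cyclin CCNT2 (0.64 ± 0.07), while the inhibitors HEXIM1 and HEXIM2 were lower (-0.25 ± 0.05 and -0.71 ± 0.19, adjusted p at most 0.012 over these 5). The call of HEXIM2 was lost without UCI-1014 replicate 2 (-0.46) or UCI-1001 replicate 1 (-0.65). The Wald test of DESeq2 did not call it either (adjusted p = 0.059).

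Metabolic genes moved little and mostly down. Of 20 cholesterol and fatty acid synthesis genes, 2 were higher with UCI-1014 and 8 lower (median -0.10), and with library size scaling none was higher and 15 lower. In this list MSMO1, a C4-demethylating oxidase, and MVK, mevalonate kinase, were called above DMSO with UCI-1001 and not with UCI-1014. MSMO1 stood at 40.8 and 40.7 CPM with DMSO, 50.8 and 57.7 CPM with UCI-1001 and 40.9 and 42.8 CPM with UCI-1014 and MVK at 26.8 and 23.1 CPM with DMSO, 30.5 and 31.3 CPM with UCI-1001 and 24.1 and 23.9 CPM with UCI-1014, log2 differences of -0.37 ± 0.07 and -0.36 ± 0.08 between the compounds (adjusted p = 9.3e-04 and 0.0038). FASN, the fatty acid synthase, differed by -0.31 ± 0.04 (adjusted p = 4.9e-05). Of 20 glycolysis and glucose uptake genes, 8 were lower and 3 higher (median -0.08), with no difference below -0.27. HK2 was among the lower ones, its call lost without UCI-1001 replicate 2 (-0.20) or UCI-1014 replicate 2 (-0.18). The higher ones were the transporter SLC2A3 (0.57 ± 0.06, adjusted p = 4.6e-06), PFKFB3 (0.28 ± 0.04) and ENO2 (0.25 ± 0.06). ENO2 lost its call with library size scaling (0.13, adjusted p = 0.07).

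Cell division genes did not part the compounds as lists. Of 27 replication genes 3 were higher and 4 lower (median -0.01), and of 22 mitotic genes 5 were higher and 3 lower (median -0.03), the latter turning to 1 higher and 16 lower with library size scaling. Over all tested genes 17.1% were higher and 13.9% lower. PCNA, the replication clamp, stood at 228 and 229 CPM with DMSO, 205 and 199.8 CPM with UCI-1001 and 148 and 157 CPM with UCI-1014 (log2 -0.41 ± 0.04, adjusted p = 4.2e-06), and the mitotic kinase AURKA differed by 0.34 ± 0.04 (adjusted p = 4.8e-05). Of 77 cytosolic ribosomal protein genes, 35 were lower with UCI-1014 and none was higher, by a median of only -0.10. RPL24 had the largest difference, -0.43 ± 0.05 (adjusted p = 2.1e-05). Library size scaling, with its shift of all genes, gave 0 higher and 76 lower. The 432 tested ZNF genes of zinc finger proteins, many of them KRAB repressors, had a median of 0.07 with 97 higher and 36 lower, reversing to 54 higher and 74 lower with library size scaling.

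The 34 tested replication-dependent histone genes, whose main transcripts end in a stem-loop without a poly(A) tail, had 20 members higher with UCI-1014 and 1 lower (median 0.72), after a median of 0.74 with UCI-1001 against DMSO. HIST1H4H stood at 1.65 and 2.00 CPM with DMSO, 3.71 and 4.68 CPM with UCI-1001 and 12.01 and 9.87 CPM with UCI-1014, HIST2H2BE at 3.76 and 3.68 CPM with DMSO, 6.04 and 6.19 CPM with UCI-1001 and 14.9 and 13.2 CPM with UCI-1014 and HIST2H4A at 2.27 and 1.62 CPM with DMSO, 2.87 and 3.42 CPM with UCI-1001 and 7.70 and 7.16 CPM with UCI-1014 (adjusted p at most 2.4e-04). HIST2H3A and HIST2H3C carry identical values and give only 1 measurement, although the counts above take members by name. The 13 mitochondrially encoded mRNAs went the other way with both compounds. All 13 were called lower than with DMSO, by a median of -0.48 with UCI-1001 and -0.52 with UCI-1014. Between the compounds only MT-CO3 was called, at -0.26 ± 0.06 (adjusted p = 0.0038), with a median of -0.08. The call of MT-CO3 was lost without UCI-1014 replicate 1 (-0.15) and with the Wald test of DESeq2 (adjusted p = 0.083).

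**Figure D3:**
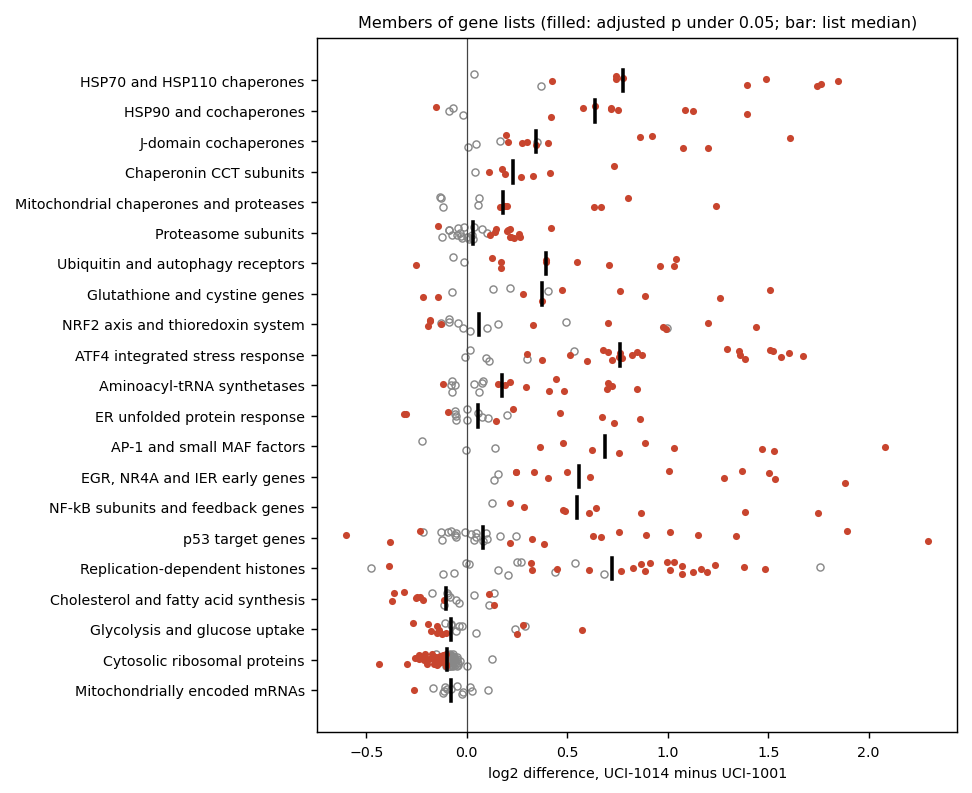
Log2 difference between UCI-1014 and UCI-1001 (horizontal axis) of every tested member of the gene lists shown (rows), filled points for members called at an adjusted p under 0.05 and open points for the rest. Short bars mark the list medians. HSP70, ATF4, NF-kB and histone members lie mainly right of 0, ribosomal protein members cluster just left of 0, and p53 targets spread to both sides.

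Of the 10 genes highest with UCI-1014 over UCI-1001, all but GIPR had a mean under 1 CPM in DMSO, and their values rest on few counts. MUC5AC (a gel-forming mucin), PHF24 and ANKRD1 (a muscle and YAP-linked ankyrin protein) had no counts in either DMSO library, so that no fold over DMSO is given. MUC5AC stood at 0.396 and 0.402 CPM with UCI-1001 and 4.42 and 3.38 CPM with UCI-1014, PHF24 at 0.0495 and 0.151 CPM and 1.25 and 1.18 CPM, and ANKRD1 at 0.248 and 0.201 CPM and 2.45 and 1.07 CPM. INHBB, the activin B subunit, stood at 0 and 0.0541 CPM with DMSO, 0.297 and 0.201 CPM with UCI-1001 and 2.33 and 2.05 CPM with UCI-1014 (log2 3.10 ± 0.46, adjusted p = 1.5e-04). SLC12A8, a cation transporter family member, stood at 0.361 and 0.162 CPM with DMSO, 0.248 and 0.0503 CPM with UCI-1001 and 1.25 and 1.33 CPM with UCI-1014 and EID3 at 0.103 and 0 CPM with DMSO, 0.198 and 0.251 CPM with UCI-1001 and 1.37 and 1.84 CPM with UCI-1014 (log2 3.06 ± 0.60 and 2.81 ± 0.52). MMP3, the matrix protease stromelysin, stood at 0.103 and 0.162 CPM with DMSO, 0.149 and 0.201 CPM with UCI-1001 and 0.956 and 1.69 CPM with UCI-1014. The other 3 were GPR183, a receptor for oxysterols (2.62 ± 0.53), GIPR, the receptor for the gut hormone GIP (2.35 ± 0.22), and the pseudogene GCSHP5 (4.10 ± 0.92), whose counts can come from its parent gene and whose call was lost without UCI-1014 replicate 1 (adjusted p = 0.12). Adjusted p over the 10 was at most 0.0036.

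The 10 genes lowest with UCI-1014 were also mostly near 1 CPM. TVP23C-CDRT4 and INO80B-WBP1 are readthrough transcripts of neighbouring genes and FABP5P7 is a pseudogene, whose estimated counts can shift between overlapping models, and IGKV1OR2-2, listed at 0 in both UCI-1014 libraries, was at least 7.34-fold lower than with UCI-1001 (3 counts per library as the floor). SLFNL1 stood at 0.67 and 1.25 CPM with DMSO, 1.49 and 0.805 CPM with UCI-1001 and 0.239 and 0.358 CPM with UCI-1014 and LRRC26 at 1.34 and 1.08 CPM with DMSO, 1.09 and 1.06 CPM with UCI-1001 and 0.119 and 0.46 CPM with UCI-1014. AVIL, the actin regulator advillin, stood at 0.876 and 1.57 CPM with DMSO, 1.49 and 1.26 CPM with UCI-1001 and 0.538 and 0.46 CPM with UCI-1014 (log2 -1.45 ± 0.44, adjusted p = 0.021), NPB, a neuropeptide, at 1.08 and 0.487 CPM with DMSO, 2.58 and 0.855 CPM with UCI-1001 and 0.597 and 0.409 CPM with UCI-1014, SAMD13 at 0.928 and 0.65 CPM with DMSO, 1.58 and 1.31 CPM with UCI-1001 and 0.478 and 0.614 CPM with UCI-1014, and FOXD4L4, one of a set of near-identical copies, at 2.58 and 2.71 CPM with DMSO, 2.33 and 1.66 CPM with UCI-1001 and 0.657 and 0.972 CPM with UCI-1014. Adjusted p over these and the readthroughs and pseudogene was at most 0.027. Calls were lost without UCI-1001 replicate 1 for INO80B-WBP1, FABP5P7, SLFNL1, LRRC26, NPB, AVIL, SAMD13 and FOXD4L4. All of these but FABP5P7 also lost the call without UCI-1014 replicate 1. SLFNL1, NPB, AVIL and SAMD13 lost it without UCI-1014 replicate 2, and LRRC26 and AVIL without UCI-1001 replicate 2. INO80B-WBP1 and NPB also lost it with each Ensembl gene on its own. Outside the naming rule and chosen after their values were seen, NOG, the BMP antagonist noggin, stood at 68.1 and 64.0 CPM with DMSO, 64.0 and 57.2 CPM with UCI-1001 and 24.4 and 30.9 CPM with UCI-1014 (log2 -1.12 ± 0.09, adjusted p = 4.7e-07), and CISH, a feedback inhibitor of cytokine signalling, at 4.84 and 4.17 CPM with DMSO, 4.75 and 4.02 CPM with UCI-1001 and 1.91 and 2.10 CPM with UCI-1014 (log2 -1.13 ± 0.22, adjusted p = 0.0013).

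The compounds lay on opposite sides of DMSO, each past the test, for 4 genes: WDR89 (40.1 and 43.0 CPM with DMSO, 49.4 and 48.5 with UCI-1001, 37.9 and 33.5 with UCI-1014), DUSP6 (166 and 162 CPM with DMSO, 187 and 192 CPM with UCI-1001 and 134 and 149 CPM with UCI-1014), MIDN (134 and 136 CPM with DMSO, 121 and 121 CPM with UCI-1001 and 155 and 159.6 CPM with UCI-1014) and GATAD2A (189 and 187 CPM with DMSO, 174.9 and 168 CPM with UCI-1001 and 204 and 212 CPM with UCI-1014). DUSP6, a phosphatase of ERK, differed from DMSO by 0.21 with UCI-1001 and by -0.22 with UCI-1014 (adjusted p = 0.0082 and 0.002). UCI-1001 lay farther from DMSO in MAGED4B, SRRM1 and TOB2, all 3 lowered by both compounds. MAGED4B can share reads with a near-identical copy, and SRRM1 and TOB2 lost the call between the compounds with library size scaling. No gene lay on opposite sides when either DMSO library was left out, and 10 did without UCI-1014 replicate 1. Of the 56 genes that UCI-1001 alone moved, the 5 with the largest difference among those with a mean of at least 1 CPM in a compound group and no overlap of the compounds' libraries were PCDHA3 (-1.06), THAP12P3 (-0.77), FAM3C2 (0.72), JRKL (-0.50) and ANKHD1-EIF4EBP3 (0.49), of which THAP12P3 and FAM3C2 are pseudogenes and ANKHD1-EIF4EBP3 is a readthrough. The calls of PCDHA3, THAP12P3 and FAM3C2 were lost without UCI-1014 replicate 1 (-0.72, -0.61 and 0.60) or UCI-1001 replicate 1 (-0.74, -0.84 and 0.62). THAP12P3 also lost its call without UCI-1001 replicate 2 (-0.68). Of those where neither compound passed against DMSO, UBE2F-SCLY (1.54 ± 0.39) and NKX2-4 (1.33 ± 0.44) were the largest under the same limits that were higher with UCI-1014. The call of UBE2F-SCLY was lost without UCI-1014 replicate 1 (0.64). NKX2-4 lost its call whichever library was left out, and with the replicate block (adjusted p = 0.054).

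**Figure D4:**
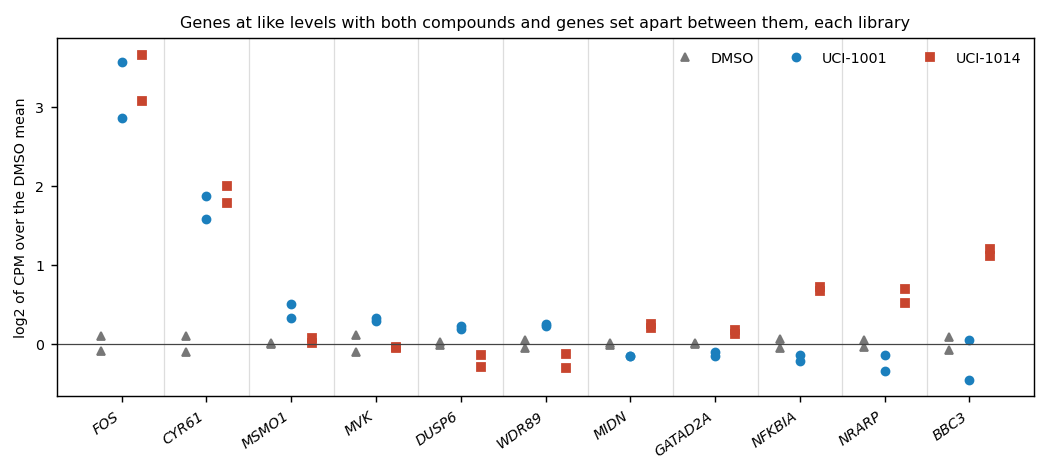
Log2 of CPM over the mean of the 2 DMSO libraries (vertical axis) in each of the 6 libraries for 11 genes, triangles for DMSO, circles for UCI-1001 and squares for UCI-1014. FOS and CYR61 stand above DMSO with libraries of the 2 compounds overlapping, MSMO1 and MVK stand above DMSO with UCI-1001 only, and NFKBIA, NRARP and BBC3 stand above it with UCI-1014 only.

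Seen from UCI-1001, 185 genes were called past 2-fold against DMSO (1.3% of the tested genes). Of these, 122 were called between the compounds, 119 with UCI-1014 farther from DMSO on the same side, which is 65.9% called against the 31.1% over all tested genes, with the caution that the contrasts share the UCI-1001 libraries. The other 63 were not called, 46 of them with at least 1 CPM. Of these 46, 37 were also called against DMSO with UCI-1014 on the same side. FOS is one of the 37. Seen from UCI-1014, 108 of the genes past 2-fold between the compounds were called against DMSO with UCI-1014 alone, BBC3, LIF and VLDLR among them.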

How the data were processed

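RNA from TOV-112D cells was sequenced in 6 libraries, 2 each for DMSO, UCI-1001 and UCI-1014, all after 3 h of treatment. Per the study's methods, the authors quantified reads against GRCh38 with kallisto 0.48.0, summed estimated counts per Ensembl gene and made the sums whole, and used DESeq2 1.38.3 for their own tests. The deposited gene table holds these counts per library and no comparison columns, and every sample column was mapped to a sample (0 were not). The deposited transcript files hold expected (estimated) counts and TPM, and transcript TPM were added per gene through GENCODE release 44.

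Here rows of the same gene symbol were added (1834 symbols, 5643 rows). The 8043 rows without a symbol, 0.423% to 0.465% of the counts, entered the filter and the fit as features of their own, under their Ensembl identifiers. Features that passed edgeR's filterByExpr (14177 of 36486) were fitted in edgeR 4.0.16 (R 4.3.3) with TMM factors and the quasi-likelihood test, one term per group, with Benjamini-Hochberg adjustment over all of them. CPM use TMM library sizes, intervals are 95% intervals of the fit, and the depth floor of 3 counts covers counting error only. The common coefficient of variation between libraries of a group was 3.59%. Counts were also simulated for UCI-1014 against UCI-1001 (13993 genes, 3 simulations). On them the test recovered 81.1%, 92.0% and 99.5% of genes given log2 changes of 0.5, 1 and 2. Of its calls there, 4.22% were false. These figures describe the simulated counts alone. The share of false calls in the real libraries, where the split into higher and lower calls moved with the scaling, was not tested.

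The compounds, the 35 gene lists and the tests were chosen with earlier results of these data known. The named genes are the 5 markers, the 10 highest and 10 lowest called genes with at least 1 CPM in a compound group and no overlap of libraries, within the same limits the 5 largest of each less common sorting class, and up to 4 called members per list. FOS, CYR61, NQO1, FTH1, MDM2, DUSP1, NOG, CISH, ASNS, ATF4, AXIN2, DDIT3, EGR1, GPX1, GPX4, HEXIM1, HSPA5, HSPA8 and JUN were added after their values were seen. Promoters and their sequences come from RefSeq (GRCh38.p14, 35116 promoters, 10768 tested genes matched), in which 7 motifs were searched. Replicate numbers did not pair the libraries: the correlations of same-numbered deviations were 0.04, -0.02 and -0.15 for the 3 pairs of groups. Alternatives were other scalings (DESeq2 size factors, upper quartile, library size alone), no filter, each Ensembl gene alone, the 4 compound libraries alone, a replicate block, leaving out each library, and the Wald test of DESeq2 1.42.0. The Saos-2 libraries were not analysed here, and a few genes are not reported here.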

Additional observations from a re-analysis of the deposited data

Results flagged for a closer look

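For 4 genes the compounds lay on opposite sides of DMSO, each compound past the test, and the difference between the compounds was itself tested (edgeR quasi-likelihood test, both libraries of each compound on the stated side). WDR89 differed by -0.46 on the log2 scale between UCI-1014 and UCI-1001, and DUSP6, a phosphatase of ERK, by -0.43, both higher than DMSO with UCI-1001 and lower with UCI-1014. MIDN, which delivers nuclear proteins to the proteasome, differed by 0.38 and GATAD2A, a subunit of the NuRD complex, by 0.28, both lower than DMSO with UCI-1001 and higher with UCI-1014. These 4 make up a small share of the 4406 called genes, and their count ranged from 0 to 10 when 1 library was left out.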

How the results depend on the processing

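Calls and counts were recomputed under 15 alternatives, one of them, the crossed pairing, chosen after seeing the data. The 4 compound libraries alone give no sorting against DMSO. Of 181 named genes, 160 had a value in all 15, and 129 of these kept their direction and their side of the threshold in each. The other 21 had no adjusted p from DESeq2 (1 of them also none from the 4 compound libraries alone), and 10 of them kept both wherever run. The 4 whose sign turned in some alternative were not called with the reported settings nor where the sign turned: MDM2 with library size scaling (-0.067) and with upper-quartile scaling (-0.0071), and with 1 library left out FOS between -0.16 and 0.55, DUSP1 between -0.012 and 0.61 and FTH1 between -0.10 and 0.0070. Some alternatives called them: FOS without UCI-1001 replicate 2, DUSP1 without replicate 2 of either compound, with no filter (0.30) and with the crossed pairing (0.31), and FTH1 with library size scaling (-0.17) and upper-quartile scaling (-0.11). Of the counts, the 4406 called genes ranged from 3011 to 3804 with 1 library left out (fewer samples in the fit), and the 261 past 2-fold from 185 to 278. The class with UCI-1014 farther out, 1417 genes, ranged from 701 to 1447, UCI-1001 farther from 2 to 8, UCI-1014 alone from 1661 to 2639, UCI-1001 alone from 18 to 58, opposite sides from 0 to 10 and neither from 156 to 496. The share of calls higher with UCI-1014 ranged from 56.6% to 63.7%. The Wald test of DESeq2 called 2891 genes, 150 past 2-fold, with 861 genes farther with UCI-1014, 1 farther with UCI-1001, 20 with UCI-1001 alone, 1 on opposite sides and 140 with neither. Of the 2891, 2889 were also called by edgeR in the same direction, and 1924 genes had no adjusted p. Genes named above as called that the Wald test did not call were CTH (adjusted p = 0.056), EGR1 (0.18), HEXIM2 (0.059), JUN (0.23), MT-CO3 (0.083) and THAP12P3 (0.13). Library size alone gave 25.5% of calls higher, 8 genes farther with UCI-1001 and 3984 with UCI-1014 alone, and upper-quartile scaling gave 38.3% higher, the scaling itself shifting all genes. No filter gave 6 genes farther with UCI-1001 and 8 on opposite sides. The replicate block called 3882 genes and put 2 on opposite sides. The replicate numbers were not shown to pair the libraries, and with the pairing crossed between compounds 4979 genes were called, 86 with UCI-1001 alone and 8 on opposite sides. Where no cause is named, the cause was not tested. With 2 libraries per group and a floor near 0.15 CPM, genes under about 1 CPM carry wide errors.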
